A study of Mus musculus with 4 samples.

Results

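The sterol and fatty acid synthesis genes are a list of 32 enzymes and regulators of lipid synthesis, found by gene symbol in a table of 25239 genes measured by RNA-seq in cultured primary chondrocytes of the mouse, the cell type of cartilage. All 32 were present and all 32 passed the filter on low counts. They comprise 18 enzymes of the cholesterol branch, 6 genes of sterol sensing and transport, and 8 enzymes of the fatty acid branch. The members were selected on the library-size scaled counts of the same cKO and control libraries, so their differences between genotypes are a description, with no test, and support nothing beyond their values.

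The study compared chondrocytes from Tiki2 fl/fl mice that carry Col2a1-Cre/ERT (cKO, 2 libraries) with those from Tiki2 fl/fl mice without the Cre (control, 2 libraries). Tiki2, gene symbol Trabd2b, is a membrane protease that inactivates Wnt ligands, and the series title places it in cartilage maintenance. All 4 cultures received 4-hydroxytamoxifen, which activates this form of Cre, and a Col2a1 promoter limits the Cre to cells that use that cartilage collagen promoter. Because controls lack the Cre, effects of the Cre and of Tiki2 loss cannot be told apart. No label gives age or strain, or says that replicates came from separate animals. The 2 control libraries differed in sex by the counts given below, so they were not from the same animal. Whether the 2 cKO libraries were is not stated, so p-values measure only sample spread, which may be technical in cKO.

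Total counts were 76425194 and 78873054 in cKO and 66750140 and 77285899 in control. Values are CPM, counts scaled to a common library size after TMM factors, which balance libraries on the bulk of their genes. With library sizes alone the median log2 fold change of all genes was 0.07, against 0.00 with TMM. Trabd2b itself was at 292 and 363 CPM in cKO and 436 and 415 CPM in control, a log2 fold change of -0.38 ± 0.11 (SE, edgeR adjusted p = 0.148), so its RNA remained in both cKO cultures. Control replicate 1 had 112185 counts of Xist, made in female cells, and 0 of the Y-linked Ddx3y, while the other 3 libraries had 36 to 171 and 11073 to 12085. By these counts control replicate 1 was female and the other libraries male, so sex was not balanced between the genotypes. The chondrocyte label was borne out by the defining markers, since Col2a1 was at 7792 and 5381 CPM in cKO and 14352 and 17760 CPM in control.

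The chondrocyte, adipocyte and fibroblast marker sums differed between the genotypes, while the muscle, macrophage and endothelial sums overlapped. The summed level of 8 chondrocyte markers was 11771 and 8408 CPM in cKO and 21361 and 25364 CPM in control. The sum of 8 adipocyte markers was 395 and 617 CPM in cKO and 302 and 306 CPM in control, and that of 8 fibroblast markers was 11304 and 11897 CPM in cKO and 9523 and 9309 CPM in control. The sum of 8 skeletal muscle markers followed single libraries, at 59.96 and 13.6 CPM in cKO and 4.95 and 29.8 CPM in control. Macrophage markers summed to 18.4 to 25.3 CPM and endothelial markers to 0.443 to 0.954 CPM, with the endothelial Emcn at 0 counts in all 4 libraries and the leukocyte marker Ptprc at 0 in 3. In such bulk samples, fewer cells of a type and less RNA per cell cannot be told apart.

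Cells build cholesterol from acetyl-CoA through mevalonate, isoprenoid diphosphates and squalene, and a chain of enzymes then trims the first sterol, lanosterol, to cholesterol. The transcription factors SREBP1 and SREBP2, encoded by Srebf1 and Srebf2, induce these enzymes and those of fatty acid synthesis. When sterols are plentiful, Insig proteins hold the escort protein Scap, with the SREBPs bound to it, in the endoplasmic reticulum. In the opposite state Scap carries them to the Golgi, where proteases release the active factor. Oxysterols activate the LXR receptors, which induce cholesterol export genes such as Abca1.

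Most cholesterol enzymes were somewhat lower in cKO, with Sqle, Msmo1, Hmgcs1 and Fdps the lowest by fold change, while the fatty acid branch was split, with Scd1 and Fasn higher and Me1, Acaca and Scd2 lower. In the edgeR quasi-likelihood fit over 15522 genes, 0 members passed an adjusted p of 0.05 upward and 3 downward, Sqle, Msmo1 and Acaca. Over all genes 1.30% passed, 0.393% higher and 0.908% lower in cKO, and nothing is read from the members' count since that comparison was known when they were chosen. At an unadjusted p under 0.05 there were 3 members higher and 14 lower, where 17.2% of all genes passed in either direction. DESeq2 gave 2 higher (Scd1 and Fasn) and 9 lower, where it called 3.70% of the 14017 genes with an adjusted p higher and 4.58% lower. With limma-voom 0 were higher and 4 lower, where it called 0.683% of all genes higher and 1.46% lower. With 1 library left out in turn, the log2 fold change ran from -0.52 to -0.45 for Sqle and -0.49 to -0.40 for Msmo1. For Acaca it ran from -0.38 to -0.32. The number of calls, among members and over all genes alike, changed with the library left out, as given in the closing section. In 22 members the cKO and control libraries did not overlap, 6 of them higher and 16 lower in cKO, where 24.9% of all genes did so in each direction.

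**Figure D1:**
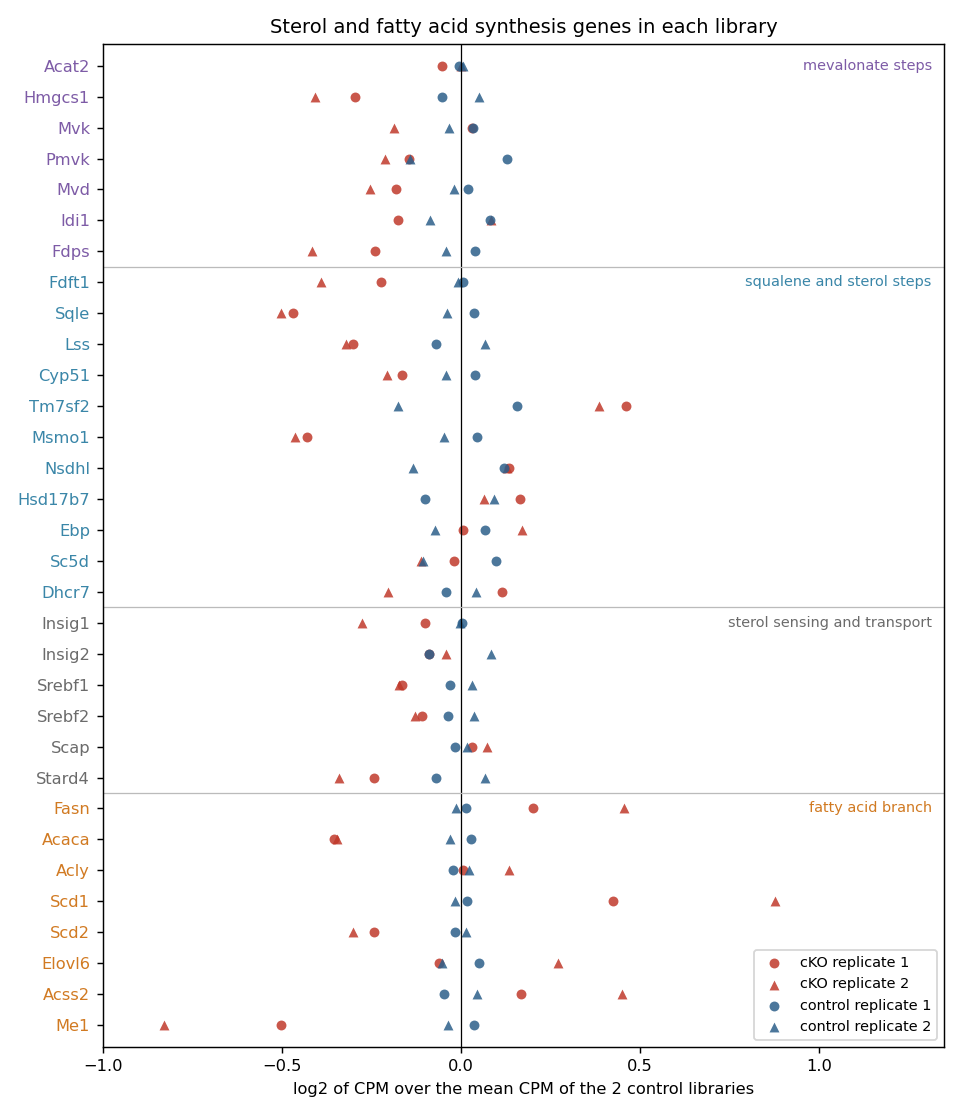
Each row is a gene and each point a library, placed by the log2 of its CPM over the mean of the 2 control libraries (circles replicate 1, triangles replicate 2). The squalene and sterol enzymes Sqle and Msmo1 sit left of both controls in both cKO libraries, and in the fatty acid branch Scd1 lies right and Me1 left, with cKO replicate 2 farther out in each.

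A feature that the choice of members did not use is their promoter sequence. RefSeq windows on GRCm38.p6, from 250 bases before to 50 bases after each start, were found for 26 of the 32 members, all but Fdps, Fdft1, Sqle, Stard4, Scd1 and Scd2. Some genes have several starts, which gave 35 windows. The CCAAT box, to which the SREBP partner NF-Y binds, was searched as CCAAT on both strands. It occurred in 23 of the 35 windows (65.7%), and in 37.4% of all 32851 windows of this length. At least 1 window held it in 14 of 15 cholesterol enzymes (all but Acat2), 4 of 5 sensing genes and 4 of 6 fatty acid genes, where Acaca and Elovl6 lacked it. Counted by window, as the 37.4% is, these were 14 of 18, 5 of 10 and 4 of 7. A share by gene was not taken over all genes. The sterol response element was searched as TCACNCCAC on both strands and occurred in 1 of the 35 windows (2.86%), that of Hmgcs1, and in 1.24% of all windows. Only this exact pattern in these short windows was searched, so a window without it does not show that the gene lacks the element. The E-box CACGTG occurred in 6 of 35 windows (17.1%) and in 7.15% of all.

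The windows of 4 members show these matches, since they pair enzymes that differed in direction, Hmgcs1 and Msmo1 lower and Tm7sf2 and Fasn higher in cKO. They lie at chr13:119690101-119690400 (plus strand), chr8:64733529-64733828 (minus), chr19:6067801-6068100 (minus) and chr11:120824498-120824797 (minus) of GRCm38.p6, in that order. Capitals mark CCAAT on either strand (ATTGG on the other) and, in Hmgcs1, also the 1 match to TCACNCCAC. Each is printed in the direction of its gene, with the start at base 251.
Hmgcs1: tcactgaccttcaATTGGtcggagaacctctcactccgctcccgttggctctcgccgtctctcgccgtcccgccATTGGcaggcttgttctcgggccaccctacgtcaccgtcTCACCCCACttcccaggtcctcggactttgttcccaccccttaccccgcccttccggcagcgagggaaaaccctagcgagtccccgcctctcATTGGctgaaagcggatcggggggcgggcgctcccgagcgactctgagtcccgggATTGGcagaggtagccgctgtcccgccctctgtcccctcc
Msmo1: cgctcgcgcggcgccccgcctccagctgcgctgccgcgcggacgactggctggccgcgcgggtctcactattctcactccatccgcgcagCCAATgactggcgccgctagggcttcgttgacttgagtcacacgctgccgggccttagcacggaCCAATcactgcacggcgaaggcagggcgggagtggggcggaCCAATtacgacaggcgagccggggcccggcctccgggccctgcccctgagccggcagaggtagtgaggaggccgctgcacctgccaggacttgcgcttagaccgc
Tm7sf2: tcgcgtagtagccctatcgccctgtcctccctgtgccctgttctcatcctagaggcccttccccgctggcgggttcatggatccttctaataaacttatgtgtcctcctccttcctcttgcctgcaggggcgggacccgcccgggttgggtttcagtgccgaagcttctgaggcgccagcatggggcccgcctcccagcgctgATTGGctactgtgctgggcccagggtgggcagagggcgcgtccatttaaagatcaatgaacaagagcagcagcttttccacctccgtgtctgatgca
Fasn: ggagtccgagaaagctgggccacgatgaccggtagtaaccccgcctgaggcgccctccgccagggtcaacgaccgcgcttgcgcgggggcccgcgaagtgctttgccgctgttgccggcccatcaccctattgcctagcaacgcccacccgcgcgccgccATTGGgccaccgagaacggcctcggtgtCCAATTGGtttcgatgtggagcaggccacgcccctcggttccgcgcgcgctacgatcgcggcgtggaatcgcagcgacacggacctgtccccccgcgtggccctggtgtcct
Hmgcs1 had 4 CCAAT matches, Msmo1 3, Tm7sf2 1 and Fasn 3, of which the last 2 in Fasn overlap on opposite strands. Both genes that were lower and genes that were higher in cKO held the box. These 4 were chosen by their direction and most members with a window held the box, so no conclusion on direction is drawn. A match is a run of letters and not a measured binding site.

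Among the 7 enzymes that lead from acetyl-CoA to farnesyl diphosphate, all log2 fold changes were below 0, from -0.35 for Hmgcs1 to -0.03 for Acat2, with a median of -0.18. Scaled by library size alone, Acat2 (0.04) and Idi1 (0.03) turned above 0. Hmgcs1, the HMG-CoA synthase that makes the substrate of the mevalonate-forming step, was at 114 and 106 CPM in cKO and 135 and 145 CPM in control, a log2 fold change of -0.35 ± 0.07 (SE). Both cKO values lay below both control values. Fdps, which makes farnesyl diphosphate, was at 47.3 and 41.9 CPM in cKO and 57.4 and 54.3 CPM in control, also without overlap.

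The other 5 enzymes of this stretch differed less. Mvd, the decarboxylase that forms isopentenyl diphosphate, was at 20.5 and 19.5 CPM in cKO and 23.5 and 22.9 CPM in control. The phosphomevalonate kinase gene Pmvk was at 9.25 and 8.82 CPM in cKO and 11.2 and 9.26 CPM in control, where cKO replicate 1 and control replicate 2 all but met. The mevalonate kinase Mvk, the isomerase Idi1 and the thiolase Acat2 overlapped between the groups, with log2 fold changes of -0.07, -0.04 and -0.03. Leaving out 1 library at a time moved Idi1 between -0.17 and 0.08 and Mvk between -0.19 and 0.03.

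The lowest fold changes of the cholesterol branch were those of Sqle and Msmo1, although the median of the 11 squalene and sterol enzymes was -0.06. Sqle, squalene epoxidase, which with the HMG-CoA reductase step limits flux through the pathway, was at 71.0 and 69.4 CPM in cKO and 101 and 95.8 CPM in control. The gap between groups was far wider than that between replicates, and the log2 fold change was -0.49 ± 0.06 (SE), or 28.6% lower in cKO. Msmo1, the methylsterol monooxygenase that acts after Cyp51 and Tm7sf2 on the remaining pair of methyl groups, was at 64.1 and 62.7 CPM in cKO and 89.1 and 83.6 CPM in control, 26.6% lower. These 2 enzymes had nearly the same value in both cKO libraries. Their edgeR calls come from the comparison known when the members were chosen and are only a description. Both edgeR calls were lost without control replicate 1, without control replicate 2 and with the replicate block, and that of Msmo1 also without cKO replicate 2.

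The steps on either side of squalene epoxidase lay in the same direction. Fdft1, squalene synthase, was at 52.1 and 46.4 CPM in cKO and 61.1 and 60.5 CPM in control. Lss, lanosterol synthase, was at 53.2 and 52.5 CPM in cKO and 62.4 and 68.6 CPM in control, a log2 fold change of -0.31 ± 0.07 (SE). Cyp51, the lanosterol demethylase, was at 75.1 and 73.0 CPM in cKO and 86.5 and 81.8 CPM in control. None of the 3 overlapped between the groups. The chondrocyte marker sum was also lower in cKO, at 11771 and 8408 CPM in cKO and 21361 and 25364 CPM in control, and its part in the cholesterol branch was not tested.

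Tm7sf2, Nsdhl and Hsd17b7 did not share this direction, although Msmo1, which acts after Tm7sf2, did. Tm7sf2, a sterol reductase that acts just after Cyp51, was higher in cKO, at 8.34 and 7.92 CPM in cKO and 6.76 and 5.37 CPM in control, a log2 fold change of 0.42 ± 0.18 (SE). Its counts per Msmo1 count, a ratio free of library scaling, were 0.130 and 0.126 in cKO and 0.0758 and 0.0643 in control. Nsdhl, which completes removal of the methyl groups with Msmo1, was at 24.3 and 24.2 CPM in cKO and 24.1 and 20.2 CPM in control, so that only control replicate 2 stood apart. Hsd17b7, the ketone reductase of the same complex, was at 51.0 and 47.5 CPM in cKO and 42.4 and 48.5 CPM in control, with overlap.

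The last 3 enzymes differed between genotypes by no more than their error. Ebp, the sterol isomerase, had a log2 fold change of 0.09 ± 0.10, the desaturase Sc5d of -0.06 ± 0.08, and Dhcr7, which performs a last reduction, of -0.04 ± 0.12 (SE). All 3 overlapped between groups, and Dhcr7 turned to 0.03 with library sizes alone. Ebp and Nsdhl lie on the X chromosome, and the Xist-rich control replicate 1 had 20.3 CPM of Ebp and 24.1 CPM of Nsdhl, within or next to the cKO values of 19.4 and 21.8 CPM for Ebp and 24.3 and 24.2 CPM for Nsdhl.

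Sterol sensing and transport genes were slightly lower, apart from Scap. Srebf1 was at 171 and 170.0 CPM in cKO and 187 and 196 CPM in control. Srebf2 was at 143 and 141 CPM in cKO and 151 and 158 CPM in control. Their log2 fold changes were -0.17 ± 0.05 and -0.12 ± 0.05 (SE), and neither overlapped. The Srebf1 counts per Srebf2 count stayed between 1.19 and 1.24 in all 4 libraries, so the 2 SREBP genes kept nearly the same ratio. Scap was at 85.1 and 87.6 CPM in cKO and 82.3 and 84.2 CPM in control, a log2 fold change of 0.05 ± 0.06 (SE).

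The Insig pair and the sterol carrier completed this group. Insig1, itself an SREBP target, was at 80.8 and 71.5 CPM in cKO and 86.7 and 86.4 CPM in control. Insig2, the other retention protein, was at 66.2 and 68.4 CPM in cKO and 66.2 and 74.6 CPM in control. Insig1 did not overlap between the groups, at a log2 fold change of -0.18 ± 0.07 (SE), and Insig2 did, at -0.06 ± 0.07, a difference that was gone with library sizes alone. Stard4, a cytosolic sterol carrier, was at 41.4 and 38.7 CPM in cKO and 46.6 and 51.3 CPM in control, again without overlap. Of these 6 genes edgeR, DESeq2 and limma-voom called 0, and 3 had an unadjusted edgeR p under 0.05, as did 17.2% of all genes.

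The fatty acid branch held both the highest and the lowest fold change of the 32. Scd1, a stearoyl-CoA desaturase that makes monounsaturated fatty acids, was at 636 and 869 CPM in cKO and 479 and 468 CPM in control, a log2 fold change of 0.67 ± 0.14 (SE). Its close relative Scd2 was lower in cKO, at 1084 and 1040 CPM in cKO and 1268 and 1295 CPM in control (-0.27 ± 0.05). The 2 cKO libraries were close for Scd2 and far apart for Scd1. Scd1 counts per Scd2 count were therefore 0.587 and 0.836 in cKO and 0.378 and 0.362 in control, while the sum of both genes was 1720 and 1909 CPM in cKO and 1747 and 1763 CPM in control.

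Fatty acid synthase and its carbon supply also differed among themselves. Fasn, which builds palmitate, was at 314 and 375 CPM in cKO and 276 and 270 CPM in control (0.33 ± 0.09). Acaca, the acetyl-CoA carboxylase that feeds it, was at 181 and 182 CPM in cKO and 236 and 226 CPM in control (-0.35 ± 0.06). Fasn counts per Acaca count were 1.74 and 2.06 in cKO and 1.17 and 1.196 in control. Acaca passed narrowly (edgeR adjusted p = 0.0495), in a comparison known when the members were chosen, so its call is only a description. The call was lost with library sizes alone (0.0672), with no filter on low counts (0.0552), without control replicate 1 (0.195), without control replicate 2 (0.208), without cKO replicate 2 (0.0911) and with the replicate block (0.106).

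Me1, the cytosolic malic enzyme that supplies NADPH, had the lowest fold change of the 32, with 219 and 175 CPM in cKO and 318 and 302 CPM in control (log2 fold change -0.66 ± 0.11, SE). Acss2, which makes acetyl-CoA from acetate, was higher, at 14.2 and 17.3 CPM in cKO and 12.2 and 13.0 CPM in control. Neither overlapped between groups. Acly, which makes acetyl-CoA from citrate, was at 221 and 241 CPM in cKO and 216 and 223 CPM in control, and the elongase Elovl6 at 54.0 and 67.9 CPM in cKO and 58.3 and 54.3 CPM in control. Both overlapped, and for Elovl6 only cKO replicate 2 stood apart.

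**Figure D2:**
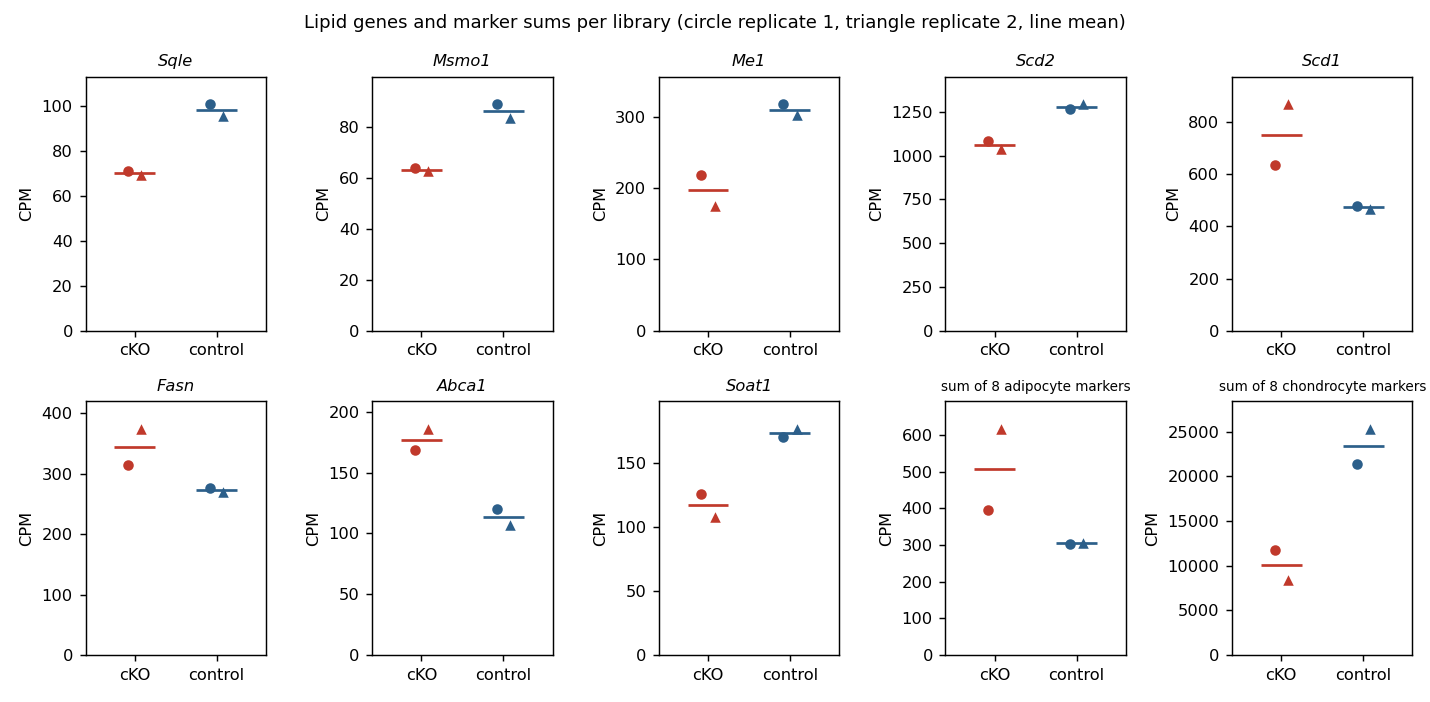
CPM of 8 lipid genes and of 2 marker sums, one point per library (circle replicate 1, triangle replicate 2, line the mean of 2), with cKO left of control and axes from 0. Every panel has its extreme in cKO replicate 2. Scd1, Fasn, Abca1 and the adipocyte sum are highest there, and Sqle, Msmo1, Me1, Scd2, Soat1 and the chondrocyte sum are lowest.

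The fatty acid genes varied more between the cKO replicates than the cholesterol enzymes did. Between replicates, the median absolute log2 difference over the 8 genes was 0.27 in cKO and 0.05 in control, and over the 18 cholesterol enzymes 0.08 in cKO and 0.10 in control. Among the 22 members without overlap, cKO replicate 2 lay farther from the controls in 19 and cKO replicate 1 in 3, Tm7sf2, Nsdhl and Acaca. The 19 were 9 of 11 cholesterol enzymes, 5 of 5 sensing genes and 5 of 6 fatty acid genes, so this was not particular to the fatty acid branch. The share over all genes was not counted. Without cKO replicate 2 the log2 fold change was 0.43 for Scd1, 0.20 for Fasn, 0.17 for Acss2 and -0.50 for Me1. Without cKO replicate 1 it was 0.87 for Scd1, 0.45 for Fasn, 0.45 for Acss2 and -0.83 for Me1. The adipocyte sum, 395 and 617 CPM in cKO and 302 and 306 CPM in control, and the chondrocyte sum, 11771 and 8408 CPM in cKO and 21361 and 25364 CPM in control, ran with the same libraries, and their part in the branch was not tested. Adipoq, the defining adipocyte hormone, was at 11.02 and 22.6 CPM in cKO and 4.14 and 6.64 CPM in control, above 0 in all 4. Of the 8 adipocyte markers, 5 were higher in cKO without overlap, and 3 overlapped, Cidec, Plin4 and Pparg. Plin4 was at 93.1 and 132 CPM in cKO and 95.1 and 96.9 CPM in control. Pparg had the lowest log2 fold change of the 8, at 0.06 ± 0.22 (SE).

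Set beside each other, the median log2 fold change was -0.13 in the cholesterol branch and 0.09 in the fatty acid branch, against 0.00 over all 15522 genes. Of the 18 cholesterol enzymes 14 were below 0 (11 with library sizes alone), and of the 8 fatty acid enzymes 3. Of all genes tested, 7698 of 15522 were below 0. The difference of the branch medians, cholesterol minus fatty acid, was -0.22, and it was -0.41 without cKO replicate 1 and -0.13 without cKO replicate 2. Leaving out control replicate 1 gave -0.17 and control replicate 2 gave -0.27. Without cKO replicate 2 the fatty acid median was -0.026, so its sign rested on that library. The summed level of the cholesterol branch was 786 and 749 CPM in cKO and 906 and 886 CPM in control, without overlap, while that of the fatty acid branch was 2722 and 2967 CPM in cKO and 2863 and 2852 CPM in control.

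**Figure D3:**
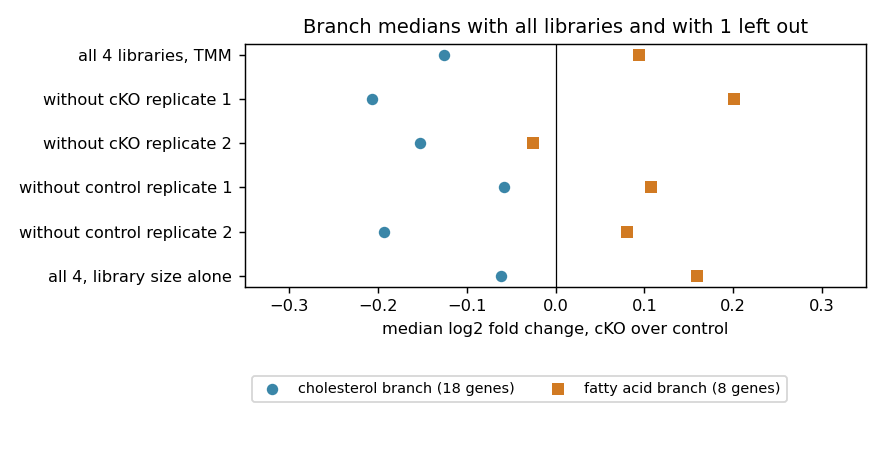
Median log2 fold change, cKO over control, of the 18 cholesterol enzymes (circles) and the 8 fatty acid enzymes (squares), with all libraries, with each library left out in turn, and with library sizes alone. The circles stay between -0.21 and -0.058, and the squares lie above 0 except without cKO replicate 2 (-0.026).

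Levels were compared between genes as CPM per kilobase of exon, from the union of GENCODE M21 exons on mm10. Scd2 led with 194 in cKO and 234 in control, followed by Scd1 with 154 in cKO and 96.8 in control, and Me1 with 51.1 in cKO and 80.6 in control. Acly came next, at 43.8 in cKO and 41.6 in control, so the 4 highest members were all in the fatty acid branch. Among sterol enzymes Hmgcs1 was highest, at 23.96 in cKO and 30.5 in control, and Tm7sf2 lowest, at 1.85 in cKO and 1.38 in control. Acss2 was the lowest of all 32, at 1.55 in cKO and 1.24 in control.

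**Figure D4:**
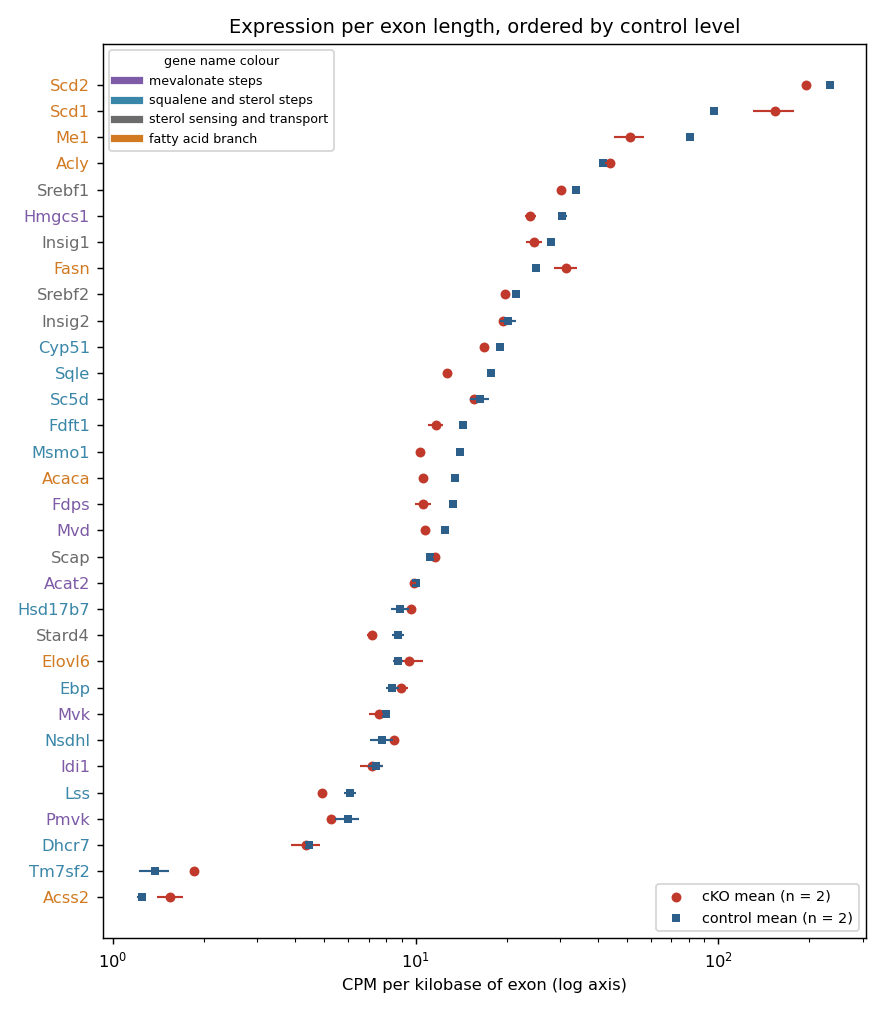
CPM per kilobase of exon on a log axis, ordered by the control level; points are means of 2 libraries, lines join the 2 libraries, and the colour of a name gives its role. Scd2 (194 in cKO, 234 in control) is far above Tm7sf2 and Acss2, which are the lowest.

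Some members' reads can be shared with other genes, since no source used here states the strand or multi-mapping settings. Of Acat2's stretches of 50 bases in GENCODE transcripts, 39.1% also occur in other genes, led by its copy Acat3. Other annotated genes, several of them pseudogene copies, share 30.4% of Acaca, 28.3% of Me1, 26.2% of Fdps, 25.3% of Idi1, 11.6% of Hmgcs1 and 9.96% of Scap. Fdft1 overlaps the cathepsin gene Ctsb on the opposite strand over 18.3% of its exon bases, Tm7sf2 overlaps Vps51 over 12.1% and Acss2 overlaps 3 genes over 9.12%. Ctsb was at 1699 and 1766 CPM in cKO and 1726 and 1623 CPM in control, and Vps51 at 26.0 and 29.4 CPM in cKO and 27.8 and 29.7 CPM in control. These 10 members are therefore uncertain in level, and their fold changes may include reads of the other genes, which was not tested. Without them the medians were -0.13 for 12 cholesterol enzymes and 0.12 for 5 fatty acid enzymes. Scd1 and Scd2 share under 5% of such stretches with any gene (4.56% and 3.97%).

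Genes that work beside the members were taken from 5 further lists with 68 genes, all tested. In the same edgeR fit 1 of the 68 rose and 1 fell, 2 calls in all beside the 1.30% of all genes. Both belong to the 11 genes of LXR action, cholesterol export, esterification and oxysterols. Abca1, the pump that loads cholesterol onto lipoprotein particles and a main LXR target, was at 168 and 186 CPM in cKO and 120 and 107 CPM in control. It rose by 0.64 ± 0.08 on the log2 scale (SE, edgeR adjusted p = 0.0324). Soat1, which esterifies cholesterol for storage, was at 126 and 108 CPM in cKO and 170.4 and 177 CPM in control. It fell by 0.57 ± 0.08 (edgeR adjusted p = 0.0418). In both, the cKO libraries lay apart from the controls.

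Both calls were lost without control replicate 1, without control replicate 2 and with libraries paired by replicate number, with edgeR adjusted p-values of 0.116, 0.175 and 0.0742 for Abca1 and 0.148, 0.214 and 0.0832 for Soat1. Abca1 counts per Soat1 count were 1.33 and 1.73 in cKO and 0.703 and 0.604 in control. The export pump gene Abcg1 was at 35.8 and 48.0 CPM in cKO and 27.0 and 25.7 CPM in control (edgeR adjusted p = 0.0879). The list's median log2 fold change was 0.17, and 8 of 11 were above 0. The adipocyte sum, 395 and 617 CPM in cKO and 302 and 306 CPM in control, and the chondrocyte sum, 11771 and 8408 CPM in cKO and 21361 and 25364 CPM in control, differed in the same libraries, and their part in the 2 calls was not tested.

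**Figure D5:**
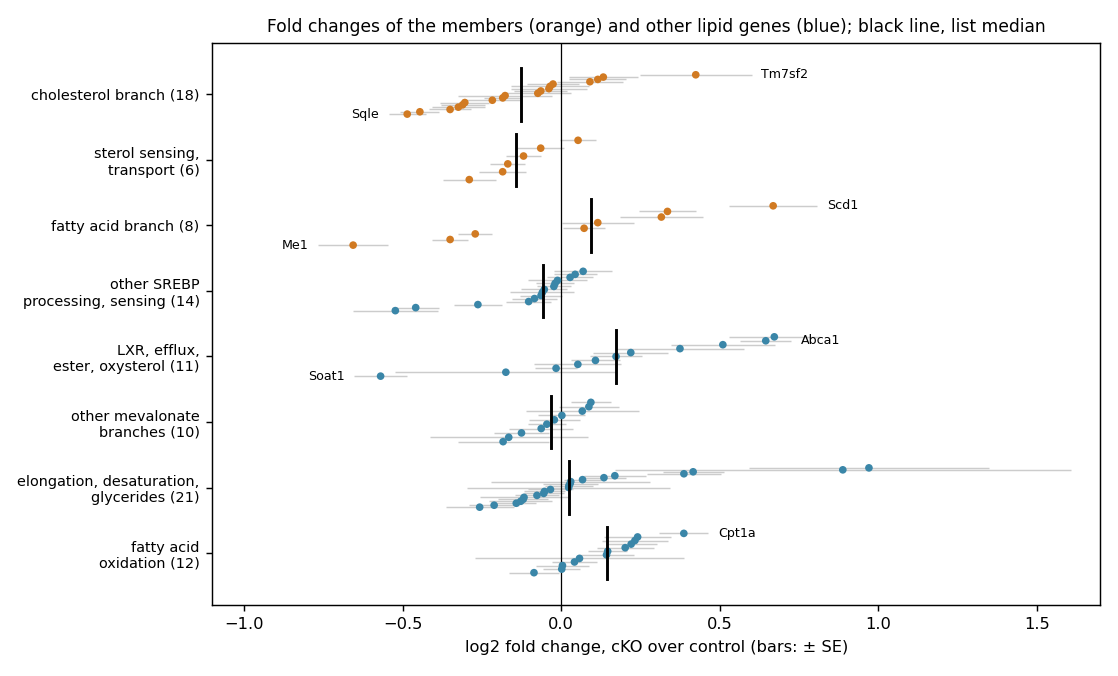
Log2 fold change, cKO over control, with its SE for each member (orange) and each gene of 5 other lipid lists (blue), and the list medians (black lines), with the number of genes in brackets. Sqle and Me1 mark the low ends and Tm7sf2 and Scd1 the high ends of the 2 branches, and Abca1 (0.64) and Soat1 (-0.57) are the called genes of the 5 other lists.

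The other 4 lists gave 0 edgeR calls. Of 14 further SREBP processing and sterol sensing genes, 3 had an unadjusted edgeR p under 0.05, beside 17.2% of all genes. DESeq2 called 2 lower, beside 4.58% of all genes, and limma-voom 1, beside 1.46%. The lowest p was that of Tmem97, a sterol-regulated membrane protein, at 37.7 and 35.5 CPM in cKO and 49.9 and 50.6 CPM in control (log2 fold change -0.46 ± 0.07, edgeR adjusted p = 0.0510). Of 10 genes that lead mevalonate to prenyl groups, dolichol and ubiquinone, 0 had an unadjusted edgeR p under 0.05, and DESeq2 and limma-voom called 0. Their median was -0.03. Ggps1, the geranylgeranyl diphosphate synthase, was at 58.7 and 57.5 CPM in cKO and 56.0 and 53.0 CPM in control (log2 fold change 0.09 ± 0.06, edgeR adjusted p = 0.521).

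Of 21 genes of elongation, desaturation, activation and glyceride synthesis, 4 had an unadjusted edgeR p under 0.05, a share near the 17.2% of all genes. DESeq2 called 2 of them higher, Acsl1 and Agpat2, beside 3.70% of all genes, and limma-voom 0. Agpat2, an acyltransferase of glyceride synthesis that adipocytes need, was at 24.95 and 26.6 CPM in cKO and 18.4 and 20.3 CPM in control (edgeR adjusted p = 0.105). The list median was 0.02. Of 12 fatty acid oxidation genes, 2 had an unadjusted edgeR p under 0.05, again a share near the 17.2% of all genes, and DESeq2 called 1 higher and limma-voom 0. Their log2 fold changes were above 0 in 11 of 12, with a median of 0.14, where 7824 of all 15522 genes were above 0. The adipocyte sum, 395 and 617 CPM in cKO and 302 and 306 CPM in control, was higher in the same libraries, and its part was not tested. Cpt1a, which admits fatty acids to mitochondria, was at 79.97 and 83.6 CPM in cKO and 66.5 and 58.7 CPM in control (0.39 ± 0.08, edgeR adjusted p = 0.0784).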

How the data were processed

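Poly(A) RNA of 4 libraries was sequenced, 2 cKO and 2 control, grouped by the sample titles. The authors deposited counts of reads by gene symbol, neither scaled nor filtered as far as the values show. Per the submitters' processing notes, the tools were HISAT2 2.2.1, StringTie 2.1.7, Trim Galore 0.6.7 and FastQC 0.11.9 and the build mm10, without their roles; how reads were counted, strand setting included, was not stated in the sources used here. Per the labels' protocols, cDNA was primed at random and no molecular identifiers are mentioned, so PCR copies cannot be told from molecules.

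Genes were kept by filterByExpr (minimum count 10), leaving 15522 of 25239, scaled by TMM and tested with the edgeR 4.0.16 quasi-likelihood test (R 4.3.3) for genotype without covariates, Benjamini-Hochberg adjusted over all genes, threshold 0.05. The procedure was tested on simulated counts with the same relative spread for every gene, so that test does not cover the uneven replicates seen here. Each standard error was taken as |log2 fold change| divided by the root of the F statistic. Gene positions and exon lengths come from GENCODE M21, which held all 32 members. Alternatives were library size alone, DESeq2 1.42.0, limma-voom 3.58.1, no filter, each library left out and a replicate block, and, chosen after seeing the data, a crossed block and leaving out members that share reads. The members and lists were chosen with earlier results of these data known. Values in every library are given for the 6 highest and 6 lowest members by fold change, the most and least expressed, the sterol sensors, and the called genes, or the gene of smallest p, of each other list; values of the remaining members are also printed and fall outside that rule.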

Additional observations from a re-analysis of the deposited data

How the results depend on the processing

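With 2 libraries a group, the number of calls depended on the processing more than the fold changes did. Over all genes edgeR called 61 higher and 141 lower in cKO, DESeq2 518 and 642, limma-voom 106 and 227, and library sizes alone 116 and 123. Leaving out 1 library gave 1 to 312 higher and 4 to 470 lower, the least without control replicate 1 and the most without cKO replicate 1. Of the members, edgeR called 0 higher and 3 lower and DESeq2 2 and 9, and leaving out 1 library gave 0 to 2 higher and 0 to 7 lower, with 0 lower without control replicate 1 or without control replicate 2. Of the other lipid genes edgeR called 2 and DESeq2 8, and leaving out 1 library gave 0 to 7.

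The cholesterol median of -0.13 was -0.061 with library sizes alone and -0.21 to -0.058 with 1 library left out, and the fatty acid median of 0.09 was -0.026 to 0.20 with 1 library left out. The branch difference of -0.22 ran from -0.41 to -0.13 with 1 library left out and kept its sign. Library sizes alone, DESeq2, limma-voom, no filter and the replicate block gave -0.22 to -0.21. They reuse the same libraries, and scaling shifts both branches alike, so they could hardly change the sign. Without members that share reads it was -0.24, and it was not taken for the crossed block. The causes were not tested.

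Replicate numbers are shared by the groups but nothing ties same-numbered libraries together. Over 14926 genes, the half-differences of replicates 1 and 2 in cKO and control had a correlation of -0.12. With the replicate block, 3 genes were higher and 20 lower, 0 members were lower and 0 of the other lipid genes were called, and the branch medians were -0.12 and 0.09. With the crossed pairing, chosen after seeing the data, 223 genes were higher and 341 lower, of the members 1 was higher and 5 lower, and 6 of the other lipid genes were called.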

Other observations

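Scd3, another stearoyl-CoA desaturase gene beside Scd1 and Scd2, was at 7.94 and 5.73 CPM in cKO and 0.260 and 11.1 CPM in control. Control replicate 1 had 17 Scd3 counts, against 616 and 466 in cKO and 839 in control replicate 2, and it is also the library with 112185 Xist counts. The difference between genotypes did not pass (log2 fold change 0.26 ± 1.18, SE, edgeR adjusted p = 0.941). Scd1 and Scd2 did not set that library apart, at 479 and 1268 CPM there and 468 and 1295 CPM in control replicate 2. This gene was chosen after its values were seen.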
